A study of Mus musculus with 23 samples.

Results

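The genes described here are the chaperonins, large ring-shaped chaperones that enclose a protein chain in a chamber and let it fold there. They were taken from the deposited gene count matrix by symbol. All 10 named genes were present among its 35976 genes: Tcp1, Cct2, Cct3, Cct4, Cct5, Cct6a, Cct7 and Cct8, which encode the 8 subunits of the cytosolic chaperonin TRiC (also called CCT), and Hspd1 and Hspe1, which encode the mitochondrial chaperonin Hsp60 and its lid Hsp10. They lie on 9 chromosomes, and Hspd1 and Hspe1 are neighbours on chromosome 1.

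RNA was sequenced from microglia, the resident macrophages of the brain, purified out of the striatum of C57BL/6J mice, all male and 9 weeks old by the labels. All mice carried an intravenous catheter and pressed a lever for infusions in daily 2 hr sessions over 15 days. The Abstinence group (7 libraries) took methamphetamine at 0.05 mg/kg per infusion and was then kept for 21 days without it; the Maintenance group (8 libraries) took the same drug and was collected at the end of the sessions; the Saline group (8 libraries) took saline and was collected at the same stage. None of these libraries comes from saline mice kept for the 21 days, so drug history, age and time since the sessions cannot be told apart between Abstinence and the other groups.

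TRiC works on newly made and unfolded cytosolic proteins, among them actin and the tubulins, and its paired rings each hold every one of the subunits once, so that the subunits are needed together. Prefoldin and Hsp70 hand proteins over to it. Hsp60 folds proteins imported into the mitochondrial matrix after Hsp70 of the matrix (Hspa9) has pulled them in, and Hsp10 caps its chamber. In mammals Hspd1 and Hspe1 stand head to head and share the DNA around their starts, and heat shock factor 1, the regulator of the heat shock response, binds repeats of the unit GAAnn in alternating orientation. In microglia, actin and tubulin build the moving processes with which these cells survey the tissue.

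Libraries held 54970954 to 94827095 counts (median 75394102), and each member had at least 2716 counts in every library (the lowest, for Cct2 in a Maintenance library), so that counting error is small beside the spread between libraries. Since no label ties a library to its own mouse, each p-value describes the scatter among these libraries, part of which may be technical. All 10 microglial markers were present, with a summed level of 50100 to 58440 CPM (counts relative to the library total, scaled by TMM factors) in Abstinence, 37990 to 59380 in Maintenance and 47210 to 60530 in Saline libraries. The isolates also held RNA of other cells. The summed level of 10 of 10 oligodendrocyte markers was 1834 to 4736 CPM in Abstinence, 1256 to 5330 in Maintenance and 648 to 5411 in Saline libraries. That of 9 of 9 neutrophil markers was 10.2 to 150 CPM in Abstinence, 4.26 to 171 in Maintenance and 44.9 to 858 in Saline libraries, with Mpo and Elane at 0 in every Abstinence and Maintenance library and Ltf at 0 in every Abstinence library. Erythrocyte markers (4 of 4) summed to a median of 412 CPM in Abstinence (78.0 to 727), 105 CPM in Maintenance (57.0 to 479) and 454 CPM in Saline libraries (156 to 665). The number of detected genes was lowest in Maintenance 6 (12459) and Maintenance 7 (12740), while Maintenance 8 held 70420 CPM of choroid plexus and ependymal markers, against at most 319 CPM in any Abstinence and 269 CPM in any Saline library. The median of these choroid plexus and ependymal sums was 251 CPM in Abstinence, 234 CPM in Maintenance and 72.7 CPM in Saline libraries. The part of erythrocytes and choroid plexus cells in the chaperonin values was not tested.

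The start region that Hspd1 and Hspe1 share, where the RefSeq genes overlap, and the start region of Cct5 are shown because they carry the letters of heat shock elements near genes that passed a test. The window of Hspe1, 250 bases before to 50 after its RefSeq start (GRCm38.p6, chr1:55087898-55088197, plus strand), holds 4 units in a row, given in capitals, at positions -89 to -72 from the start. The window of Cct5 (the first of 2 RefSeq starts, chr15:31601797-31602096, minus strand) holds a pair of units, in capitals, at positions -34 to -27.
Hspe1: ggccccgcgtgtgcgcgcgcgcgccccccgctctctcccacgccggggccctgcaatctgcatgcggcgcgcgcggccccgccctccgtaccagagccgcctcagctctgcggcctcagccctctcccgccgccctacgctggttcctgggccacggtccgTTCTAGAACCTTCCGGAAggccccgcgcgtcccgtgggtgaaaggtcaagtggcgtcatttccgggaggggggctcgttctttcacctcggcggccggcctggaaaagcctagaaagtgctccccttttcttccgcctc
Cct5: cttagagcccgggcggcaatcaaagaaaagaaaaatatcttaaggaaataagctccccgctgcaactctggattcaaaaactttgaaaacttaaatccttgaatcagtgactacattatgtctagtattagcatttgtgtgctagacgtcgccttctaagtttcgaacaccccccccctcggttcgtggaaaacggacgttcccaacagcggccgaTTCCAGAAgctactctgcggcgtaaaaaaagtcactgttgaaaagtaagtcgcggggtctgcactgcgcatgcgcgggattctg

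Both orders of a pair of units were searched on both strands, as GAANNTTC and TTCNNGAA. RefSeq gave windows for 9 of the 10 members, 12 windows in all (Cct4 had no entry), and 5 members held a pair: Cct2, Cct5, Cct6a, Hspd1 and Hspe1. Of all 32851 windows searched, 15.1% held a pair, and 4587 of all 27025 genes did. A run of 4 units, TTCNNGAANNTTCNNGAA or in the other order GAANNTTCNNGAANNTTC, contains 3 overlapping pairs. It was in 8 windows of 8 genes (0.0244% of windows), and 2 of these genes were Hspd1 and Hspe1, which share the same 18 bases at chr1:55088059-55088076. On the plus strand this element reads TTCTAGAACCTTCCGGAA. It lies at -144 to -127 from the second RefSeq start of Hspd1, on the strand of that gene, and inside an annotated exon of Hspd1 and no exon of Hspe1 in GENCODE M21. The other 6 genes included Chordc1, an Hsp90 co-chaperone, which rose in Maintenance against Saline (log2 fold change 1.03 ± 0.12, SE; adjusted p = 1.29e-05, edgeR's quasi-likelihood test), and Kctd18, Arpc2 and Fam149a, which had log2 fold changes of -0.18, -0.09 and -0.01 with adjusted p of 0.886, 0.477 and 0.996 in the same test. The CCAAT box, searched as CCAAT and ATTGG, was in 5 members (Tcp1, Cct3, Cct6a, Cct7 and Hspd1). Of all 27025 genes 41.1% held it, and of all windows 37.4%. A match is a string of letters, and binding was not measured.

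At the end of methamphetamine taking, the subunit gene Cct4, the subunit gene Cct5 and the Hsp60 gene Hspd1 were higher than after saline, by between 1.21-fold and 1.35-fold. They were 3 of the 10 members, all higher, where 0.335% of the 16121 genes tested were called higher (adjusted p under 0.05, edgeR's quasi-likelihood test with Benjamini-Hochberg adjustment over all genes tested). The log2 fold change was above 0 for 9 of the 10 members, with a median of 0.25 over the members and 0.005 over all genes tested. At an unadjusted p under 0.05, 5 members were higher (Tcp1 and Cct7 beside these 3), and 6.06% of all genes were. In bulk RNA of an isolate, fewer cells of a type and less RNA per cell cannot be told apart.

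Cct4 encodes the delta subunit of TRiC. Its level was 171.3, 218.3 and 231.7 CPM (lowest, median and highest) in Abstinence libraries, 233.8, 247.3 and 360.7 CPM in Maintenance libraries and 177.6, 195.0 and 211.3 CPM in Saline libraries. All 8 Maintenance libraries stood above all 8 Saline libraries and above all 7 Abstinence libraries, and 4 of the 7 Abstinence libraries stood above the highest Saline library. Cct4 rose 1.35-fold in Maintenance against Saline (log2 fold change 0.43 ± 0.080, SE; adjusted p = 0.00659, edgeR's quasi-likelihood test). Maintenance 6, at 360.7 CPM, lay well above the other Maintenance libraries (233.8 to 280.2 CPM). Without it the log2 fold change was 0.35 ± 0.064 (adjusted p = 0.00564, edgeR's quasi-likelihood test).

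Hspd1 encodes Hsp60, the ring of the mitochondrial chaperonin. It stood at 156.3, 181.8 and 208.7 CPM in Abstinence libraries, at 187.7, 219.9 and 241.3 CPM in Maintenance libraries and at 153.1, 167.8 and 177.5 CPM in Saline libraries (lowest, median and highest). Every Maintenance library was above every Saline library, whereas the Abstinence libraries overlapped both other groups. Hspd1 rose 1.31-fold in Maintenance against Saline (log2 fold change 0.39 ± 0.068, adjusted p = 0.00297, edgeR's quasi-likelihood test). Cct4 and Hspd1 were the members whose Maintenance libraries all lay above the Saline libraries, a pattern that 27 of 16121 genes (0.167%) showed. Both passed the test in each of the 23 fits that left out 1 library, with adjusted p up to 0.0217 for Cct4 and up to 0.00851 for Hspd1 in edgeR's test.

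Cct5 encodes the epsilon subunit. Abstinence libraries had 174.9, 185.7 and 230.8 CPM, Maintenance libraries 191.5, 231.4 and 244.8 CPM and Saline libraries 175.8, 184.5 and 206.7 CPM (lowest, median and highest). Of the 8 Maintenance libraries, 6 were above the highest Saline library, and the Abstinence range spanned most of both. It rose 1.21-fold in Maintenance against Saline (log2 fold change 0.27 ± 0.064, adjusted p = 0.0359, edgeR's quasi-likelihood test). This call depended on the settings and on single libraries. With all libraries kept it missed the threshold with upper-quartile factors (adjusted p = 0.0772), no filter on low counts (0.0676), the replicate number as a block, here called the replicate block (0.0581), and the number of detected genes as a covariate (log2 fold change 0.23, adjusted p = 0.114, edgeR's test). It passed in 14 of the 23 fits with 1 library left out and missed the threshold without Maintenance 1, 2, 4 or 6 or without Saline 1, 2, 3, 4 or 5, where adjusted p was between 0.0563 and 0.0895 and the log2 fold change between 0.26 and 0.27.

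These 3 calls were lost when the oligodendrocyte and neutrophil marker means were added to the fit as covariates. The log2 fold changes in Maintenance against Saline were then 0.42 ± 0.11 for Cct4, 0.34 ± 0.093 for Hspd1 and 0.19 ± 0.087 for Cct5 (adjusted p = 0.132, 0.168 and 0.487, edgeR's quasi-likelihood test). Over all genes, 19 were called higher in that fit, against 54 without the covariates. Median oligodendrocyte marker sums were 3920 CPM in Maintenance and 1746 CPM in Saline libraries, and median neutrophil sums were 79.3 and 126 CPM in Maintenance and Saline libraries. The part of these cells in the chaperonin values was not tested beyond this fit. Without Maintenance 6, 7 and 8 together the same 3 members passed.

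**Figure D1:**
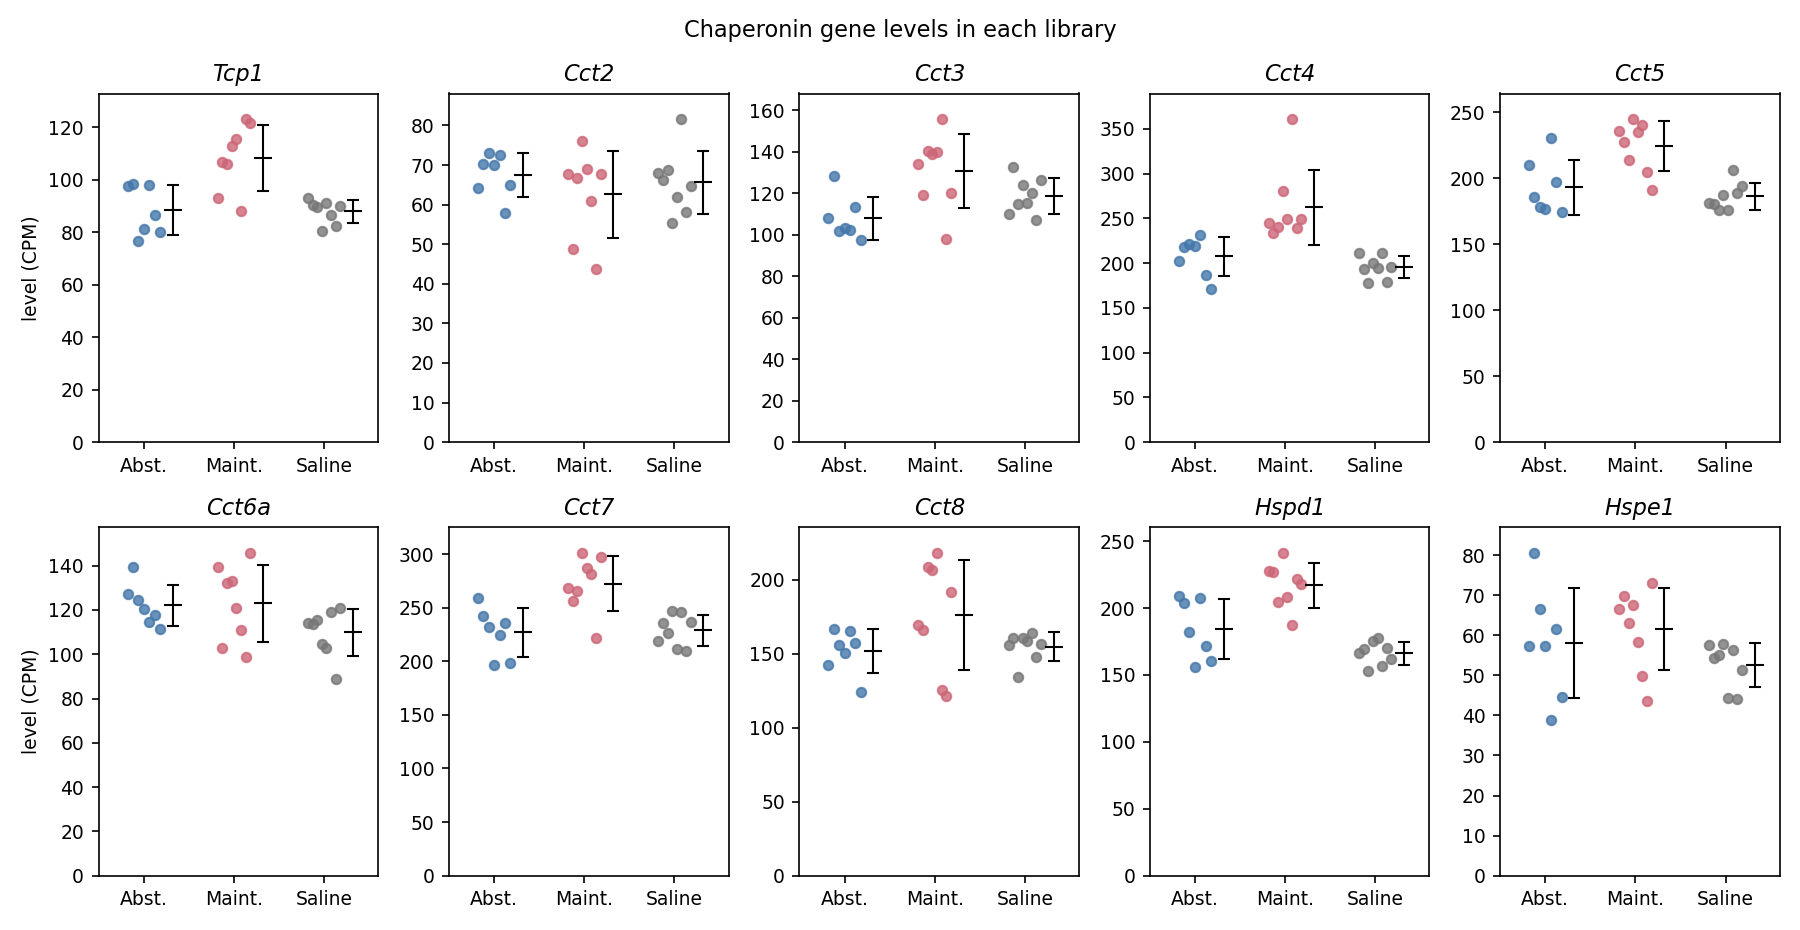
Level of each chaperonin gene (CPM, scaled by TMM factors, vertical axis from 0) in each library of Abstinence (n = 7), Maintenance (n = 8) and Saline (n = 8), with group mean and SD beside the points. Cct4 and Hspd1 are the panels in which every Maintenance point is above every Saline point, and Cct2 is the panel whose Maintenance mean lies below both other group means.

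The other 7 members did not pass in Maintenance against Saline. Tcp1, the alpha subunit and the gene for which the complex is named, had 76.8 to 98.4 CPM in Abstinence libraries (median 86.7), 88.1 to 123.0 CPM in Maintenance libraries (median 109.8) and 80.6 to 92.9 CPM in Saline libraries (median 89.8). Of the Maintenance libraries, 7 of 8 were above the highest Saline library, and Maintenance 6 was the lowest. The log2 fold change in Maintenance against Saline was 0.31 ± 0.078 (adjusted p = 0.0574, edgeR's test), and Tcp1 passed without Maintenance 1 (0.34 ± 0.077, adjusted p = 0.0381) or without Maintenance 6 (0.35 ± 0.073, adjusted p = 0.023). Cct7, the eta subunit, had 196.5 to 258.9 CPM in Abstinence libraries (median 232.2), 222.2 to 301.2 CPM in Maintenance libraries (median 275.3) and 209.9 to 247.2 CPM in Saline libraries (median 231.0). Here too 7 of 8 Maintenance libraries exceeded the highest Saline library, with Maintenance 7 the lowest, and the log2 fold change was 0.26 ± 0.069 (adjusted p = 0.0749, edgeR's test). Without Maintenance 7 it was 0.30 ± 0.063 and passed (adjusted p = 0.0251, edgeR's test).

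Cct8, the theta subunit, had the largest spread of the subunits in Maintenance (coefficient of variation 21.1%). It had 124.3 to 166.8 CPM in Abstinence libraries (median 155.7), 121.7 to 218.1 CPM in Maintenance libraries (median 180.4) and 134.4 to 164.0 CPM in Saline libraries (median 157.3). In Maintenance, 6 libraries were above the highest Saline library, and the remaining ones, Maintenance 6 and 7, were below the lowest. Its log2 fold change in Maintenance against Saline was 0.19 ± 0.10 (adjusted p = 0.479, edgeR's test). Over 13 other settings it was between 0.16 and 0.35, highest with only the 17 libraries of a second deposited table, which leaves out Maintenance 6 and 7 among others, and the lowest adjusted p was 0.0525 (without Maintenance 6, 7 and 8).

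Cct3 (gamma subunit) and Cct6a (zeta subunit) each had 5 of 8 Maintenance libraries above the highest Saline library. Cct3 had 97.6 to 128.6 CPM in Abstinence libraries (median 103.2), 98.1 to 155.7 CPM in Maintenance libraries (median 136.6) and 107.1 to 132.8 CPM in Saline libraries (median 117.9). Cct6a had 111.5 to 139.3 CPM in Abstinence libraries (median 120.6), 98.8 to 145.8 CPM in Maintenance libraries (median 126.6) and 89.0 to 121.0 CPM in Saline libraries (median 113.8). Log2 fold changes in Maintenance against Saline were 0.15 ± 0.079 for Cct3 and 0.17 ± 0.084 for Cct6a (adjusted p = 0.488 and 0.432, edgeR's test). For both, Maintenance 7 was the lowest library of its group. With the number of detected genes as a covariate Cct6a was at 0.31 (adjusted p = 0.0503, edgeR's test).

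Cct2, the beta subunit, was the member with a log2 fold change below 0. It had 57.9 to 73.2 CPM in Abstinence libraries (median 69.9), 43.8 to 76.1 CPM in Maintenance libraries (median 67.2) and 55.3 to 81.6 CPM in Saline libraries (median 65.5). The groups overlapped, with 2 Maintenance libraries, 7 and 2, lower than any other library. The log2 fold change in Maintenance against Saline was -0.06 ± 0.10 (95% interval -0.27 to 0.15; adjusted p = 0.911, edgeR's test). Without Maintenance 7 it was 0.00094, with the sign turned.

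Hspe1 encodes Hsp10, the lid of the Hsp60 chamber. Its level was 38.9 to 80.6 CPM in Abstinence libraries (median 57.4), 43.5 to 73.0 CPM in Maintenance libraries (median 64.7) and 44.1 to 57.9 CPM in Saline libraries (median 54.8). In Maintenance, 6 of 8 libraries were above the highest Saline library and 1, Maintenance 7, was below the lowest. The log2 fold change of Hspe1 in Maintenance against Saline was 0.23 ± 0.13 (95% interval -0.03 to 0.49; adjusted p = 0.499, edgeR's test), beside 0.39 ± 0.068 for Hspd1. With the number of detected genes as a covariate Hspe1 was at 0.47 ± 0.10 and passed (adjusted p = 0.0271, edgeR's test), so that the order of the pair is not settled. Hspe1 counts were 0.318 ± 0.074 of the Hspd1 counts in Abstinence, 0.283 ± 0.041 in Maintenance and 0.318 ± 0.042 in Saline libraries (mean ± SD), with overlapping ranges.

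**Figure D2:**
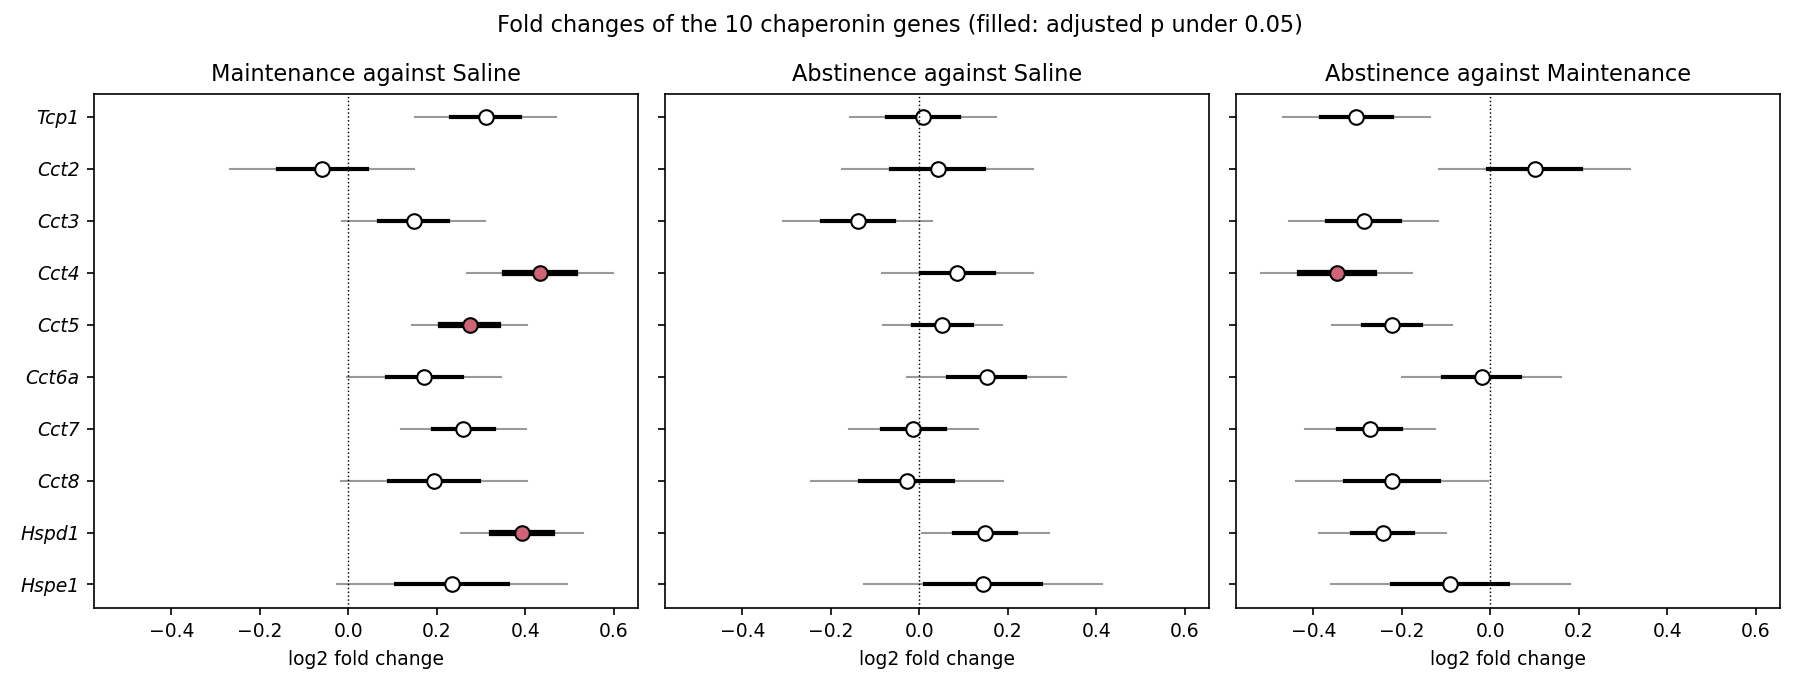
Log2 fold change of each member (horizontal axis) in the 3 comparisons, with SE as thick bars and the 95% interval as thin lines; filled points have an adjusted p under 0.05 in edgeR's quasi-likelihood test. In Maintenance against Saline, 9 of 10 points are above 0 and 3 are filled, in Abstinence against Saline none is filled, and in Abstinence against Maintenance Cct4 alone is filled.

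After 21 days without the drug, no member passed against Saline, where 0.0186% of all genes (3 of 16121) were called in either direction in edgeR's quasi-likelihood test. DESeq2 and limma voom also called 0 members, while they called 36 and 184 of all 16121 genes in either direction. In edgeR's test 1 member was under an unadjusted p of 0.05: Hspd1, with a log2 fold change of 0.15 ± 0.070 (95% interval 0.01 to 0.29; unadjusted p = 0.0424). Of all 16121 genes, 707 were under that unadjusted p in either direction. The adjusted p was 0.999 for each of the 10 genes. Log2 fold changes in Abstinence against Saline were between -0.14 (Cct3) and 0.15 (Cct6a and Hspd1), with a median of 0.05 over the members. For Cct4 the value was 0.09 ± 0.083 (95% interval -0.08 to 0.26), and for Cct5 it was 0.05 ± 0.066 (-0.08 to 0.19).

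Against Maintenance, Cct4 was lower in Abstinence and passed alone among the members. It fell by 0.35 on the log2 scale (0.786-fold; SE 0.083; adjusted p = 0.0391, edgeR's quasi-likelihood test), where 0.552% of all genes were called lower. All 7 Abstinence libraries were below all 8 Maintenance libraries for Cct4, which was so for 32 of 16121 genes (0.198%) and for no other member. The call passed in 16 of the 23 fits with 1 library left out. It missed the threshold without Abstinence 1, 2, 3, 4, 6 or 7 or without Maintenance 4, where adjusted p was between 0.0565 and 0.0823 and the log2 fold change between -0.36 and -0.32. With all libraries kept it was lost with the number of detected genes as a covariate (-0.27, adjusted p = 0.173, where Cct7 passed instead), with upper-quartile factors (adjusted p = 0.0538) and with the replicate block (0.0599), all in edgeR's test. The call was also lost with only the groups compared, which leaves out the Saline libraries (adjusted p = 0.127, edgeR's test). With only the libraries of the second table it was -0.28 and missed the threshold (adjusted p = 0.0585, edgeR's test). Without Maintenance 6, 7 and 8 together the value was -0.27 and missed the threshold (adjusted p = 0.0519), and Cct3, Cct5, Cct7 and Cct8 passed instead.

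The log2 fold change in Abstinence against Maintenance was below 0 for 9 of the 10 members, with a median of -0.23 over the members and 0.006 over all genes. At an unadjusted p under 0.05, 7 members were lower, and 5.86% of all genes were. Values were -0.30 ± 0.081 for Tcp1, -0.29 ± 0.082 for Cct3, -0.27 ± 0.071 for Cct7, -0.24 ± 0.070 for Hspd1, -0.22 ± 0.066 for Cct5 and -0.22 ± 0.11 for Cct8, with adjusted p between 0.0584 and 0.434 in edgeR's test. In edgeR's fits with 1 library left out, Tcp1 passed without Maintenance 1 or 6, Cct3 without Maintenance 7, Cct5 without Abstinence 5 or Maintenance 8, Cct7 without Abstinence 1 or Maintenance 7, and Hspd1 without Maintenance 6, all lower in Abstinence, with adjusted p between 0.0121 and 0.0394. DESeq2 and limma voom each called 6 members lower: Tcp1, Cct3, Cct4, Cct5, Cct7 and Hspd1. Of all 16121 genes, DESeq2 called 279 lower and voom 187, against 89 in edgeR's fit. Hspe1 was at -0.09 ± 0.13, Cct6a at -0.02 ± 0.087 and Cct2 at 0.10 ± 0.11 in edgeR's fit, with 95% intervals that held 0. This comparison and Maintenance against Saline share the Maintenance libraries, so the opposite signs of their values are not independent of each other.

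**Figure D3:**
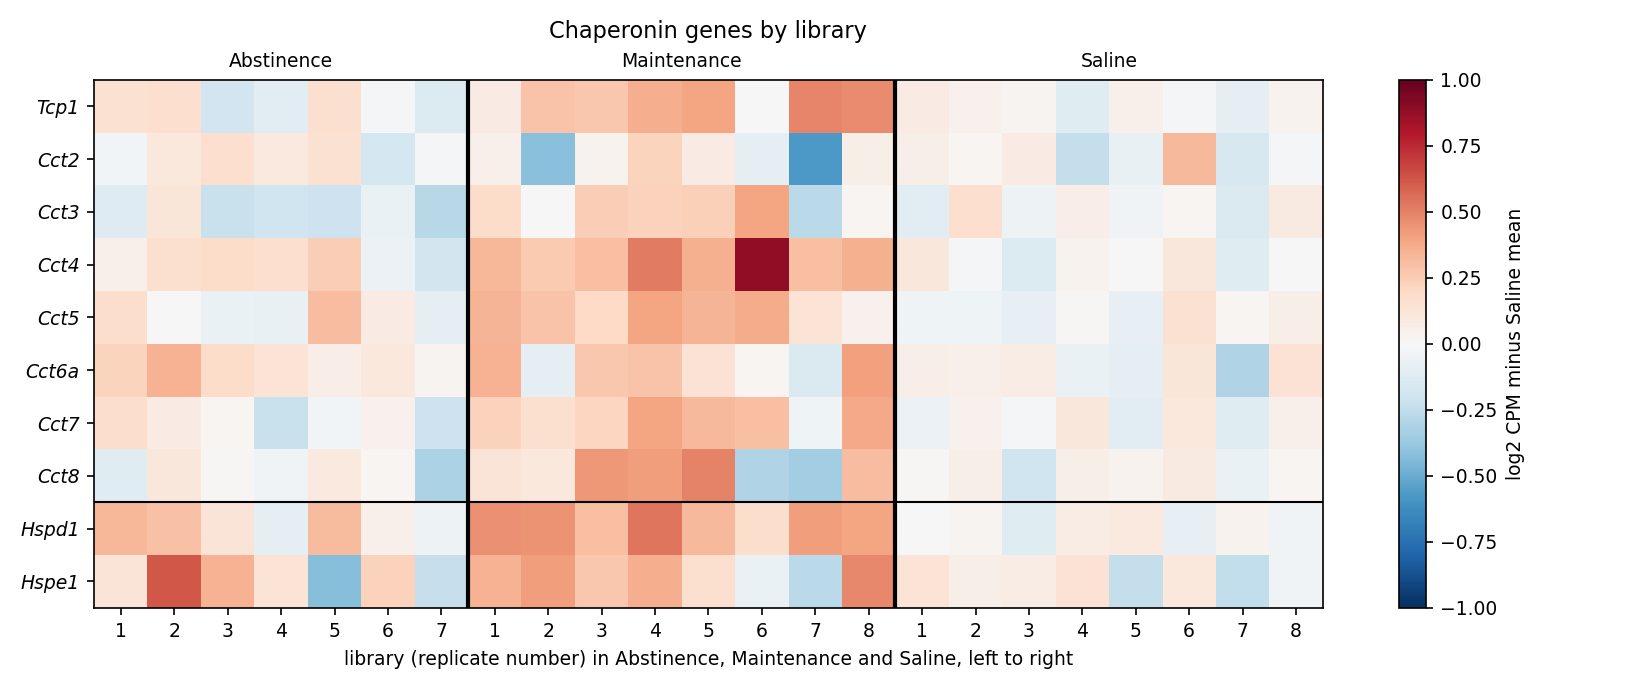
Log2 CPM of each member in each library minus the mean of the Saline libraries (colour, red above and blue below), with Abstinence, Maintenance and Saline libraries left to right. Most Maintenance cells are red in each row, and every Maintenance cell is red for Cct4, Cct5 and Hspd1. Cct4 is darkest in Maintenance 6, and Maintenance 7 is blue for Cct2, Cct3, Cct6a, Cct7, Cct8 and Hspe1.

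Levels between members were compared per kb of transcript, with CPM divided by the length of the principal GENCODE M21 transcript. For Cct6a no protein-coding transcript was found there. Its longest transcript of any type (2454 bases) was used, and its place in the order rests on that length. In Saline libraries Cct5 was highest at 100.6 ± 5.6 CPM per kb, then Cct7 at 93.9 ± 6.0, Cct4 at 78.7 ± 5.0, Cct8 at 64.6 ± 4.0, Cct3 at 60.1 ± 4.4, Cct6a at 44.8 ± 4.3, Tcp1 at 35.9 ± 1.8 and Cct2 at 33.5 ± 4.1 (mean ± SD, n = 8). Cct5 was 3.00 times as high as Cct2, although the complex holds the subunits in equal number. Neighbours in this order whose ranges overlapped were Cct5 and Cct7, Cct8 and Cct3, Cct6a and Tcp1, and Tcp1 and Cct2. The order of means was the same in the other groups. It rests on the transcript lengths used, 1853 bases for Cct5, 2441 for Cct7 and 2484 for Cct4. The coding lengths of these genes were close, at 1623, 1632 and 1617 bases in GENCODE M21. Before division by length, the mean in Saline libraries was 186.5 CPM for Cct5, 229.1 for Cct7 and 195.4 for Cct4. Cct5 is therefore not shown to be the highest by other lengths. Hspd1 and Hspe1 had 68.6 ± 3.6 and 68.0 ± 7.2 CPM per kb in Saline libraries.

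The balance between the subunits, given as shares of their summed counts, does not depend on how libraries are scaled, whereas their summed CPM does. The 8 TRiC genes summed to 1165 ± 79 CPM in Abstinence, 1360 ± 108 CPM in Maintenance and 1148 ± 54 CPM in Saline libraries (mean ± SD), and 7 of 8 Maintenance libraries were above the highest Saline library. Of the summed TRiC counts, Cct2 made up 5.81 ± 0.52% in Abstinence, 4.58 ± 0.52% in Maintenance and 5.71 ± 0.55% in Saline libraries. For this share, 6 of 7 Abstinence and 7 of 8 Saline libraries were above the highest Maintenance library (5.09%). Cct4 made up 17.8 ± 1.3% in Abstinence, 19.3 ± 2.7% in Maintenance and 17.02 ± 0.68% in Saline libraries, with its highest value, 25.3%, in Maintenance 6. The share of Cct7 overlapped between all groups, at 19.5 ± 1.3% in Abstinence, 20.03 ± 0.69% in Maintenance and 19.9 ± 0.7% in Saline libraries.

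**Figure D4:**
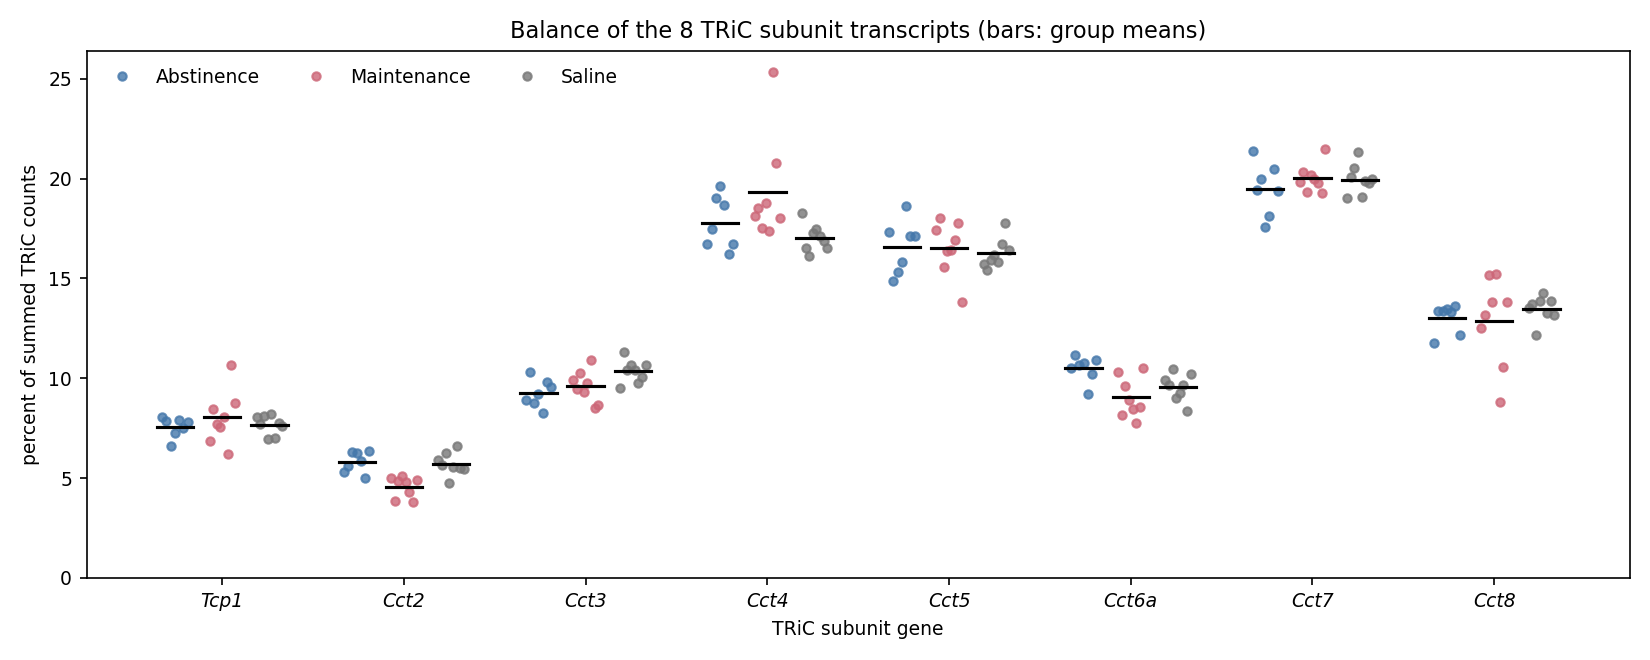
Counts of each TRiC subunit gene as a percent of the summed counts of the 8 subunits (vertical axis), 1 point per library, for Abstinence, Maintenance and Saline side by side, with bars at the group means. Cct2 is lower in Maintenance, at a mean of 4.58%, than in Abstinence (5.81%) or Saline (5.71%), and Cct4 reaches 25.3% in Maintenance 6.

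Within groups, the subunits varied together only in part. With the group means taken off, Pearson's r of log2 CPM over the 23 libraries had a median of 0.352 over the 28 pairs of TRiC genes, between -0.187 (Tcp1 with Cct3) and 0.75 (Cct2 with Cct6a), and was above 0 in 23 pairs. Over all pairs of genes whose log2 CPM averaged 3 or more, the median was 0.008. Cct2, Cct3, Cct6a, Cct7 and Cct8 had r between 0.405 and 0.665 in every pairing among themselves other than Cct2 with Cct6a, while Tcp1 had r of at most 0.31 with any other subunit. Tcp1 varied more closely with Hspd1 (r = 0.552, Spearman's rho 0.536), and Cct6a with Hspe1 (r = 0.664, rho 0.583). Hspd1 and Hspe1, which share the start region printed above, had r = 0.165 and rho 0.242. These values are descriptions over libraries that share depth and composition, and Maintenance 7 was the lowest library of its group for Cct2, Cct3, Cct6a, Cct7, Cct8 and Hspe1.

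**Figure D5:**
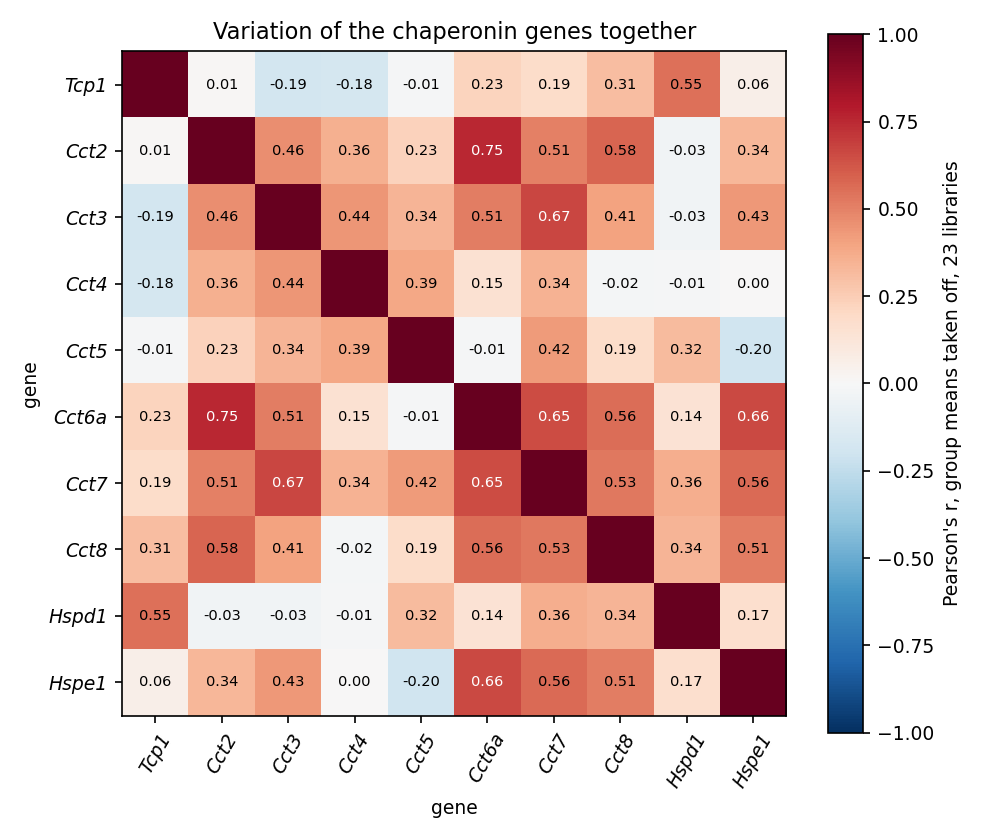
Pearson's r between members of log2 CPM with the group means taken off, over 23 libraries (colour and printed value). The block of Cct2, Cct3, Cct6a, Cct7 and Cct8 is red throughout, with r up to 0.75, and the row of Tcp1 is pale apart from Hspd1 (0.55).

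The genes whose pattern within groups was most like the mean of the 8 TRiC genes, among 7798 genes and over 23 libraries, were Vimp (r = 0.777, rho 0.859), Msh6 (0.775, rho 0.675), Lsm6 (0.774, rho 0.665), Kti12 (0.771, rho 0.564) and Fam114a2 (0.77, rho 0.775). Without Abstinence 7 and Maintenance 7, the libraries farthest from the median, r was between 0.581 and 0.723. Those most like the mean of Hspd1 and Hspe1 were Actr6 (r = 0.732, rho 0.694), Sdhaf4 (0.713, rho 0.656), Srp14 (0.697, rho 0.601), Sypl (0.692, rho 0.626) and Pafah1b2 (0.691, rho 0.575). For these, r was between 0.555 and 0.724 without Abstinence 7 and 2.

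Genes that work with the chaperonins were counted in the same fit. Of 9 TRiC partners (the prefoldin subunits and phosducin-like cofactors), 29 genes of known clients (actins, tubulins, G protein beta subunits and others), 6 tubulin cofactors and 4 chaperonin-like genes, none passed in any of the 3 comparisons in edgeR's test. In Maintenance against Saline the median log2 fold change was -0.06 over the partners, -0.02 over the clients, -0.06 over the tubulin cofactors and -0.13 over the chaperonin-like genes, and at an unadjusted p under 0.05 these lists had 0, 2, 0 and 0 genes higher and 2, 2, 0 and 0 lower. Of 18 mitochondrial chaperones and proteases 0 passed in any comparison, with a median of 0.06 and 2 genes higher at an unadjusted p under 0.05 in Maintenance against Saline. Of 8 tested regulators of mitochondrial stress responses 0 passed either, with a median of 0.03 and none at an unadjusted p under 0.05 in that comparison. Hspa9, the Hsp70 of the matrix, had 98.3 to 133.2 CPM in Abstinence libraries, 100.4 to 153.8 CPM in Maintenance libraries and 108.1 to 167.1 CPM in Saline libraries, with overlapping groups. Its log2 fold change in Maintenance against Saline was -0.05 ± 0.10 (95% interval -0.26 to 0.15; adjusted p = 0.919, edgeR's test).

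Larger log2 fold changes stood in a list of cytosolic Hsp70 and Hsp90 genes and their co-chaperones, which also held Hspb1, Hsf1 and Hsf2. Of the 22 genes listed, 9 rose in Maintenance against Saline, where 0.335% of all genes were called higher. The median log2 fold change was 0.74 over the list. Hspa8, the constitutive Hsp70, had 1454 to 2210 CPM in Abstinence libraries, 2690 to 4127 CPM in Maintenance libraries and 1541 to 2102 CPM in Saline libraries, and rose 1.86-fold in Maintenance against Saline (adjusted p = 1.1e-06, edgeR's test). Ahsa2, an activator of Hsp90, had a log2 fold change of 1.43, and Dnaja1, a partner of Hsp70, rose 1.97-fold (adjusted p = 1.37e-06 and 4.23e-06). Hsp90ab1, the constitutive Hsp90, rose 1.68-fold, and Hsph1, the Hsp110 that helps Hsp70 let go of its spent nucleotide, rose 2.61-fold (adjusted p = 0.00132 and 1.95e-05). In Abstinence against Saline 2 of the 22 passed, where 0.0186% of all genes were called in either direction. These were Hsph1 (2.00-fold, adjusted p = 0.0196) and Dnaja1 (1.51-fold, adjusted p = 0.0433, edgeR's test), both higher. In Abstinence against Maintenance 6 of the 22 fell, where 0.552% of all genes were called lower. Among them Hspa8, Stip1, Ahsa2 and Chordc1 were at 0.499-fold, 0.477-fold, 0.440-fold and 0.607-fold (adjusted p = 2.51e-07, 1.72e-05, 3.24e-05 and 0.0023, edgeR's test). In this comparison 5 of the 22 had log2 fold changes above 0. The largest were those of Hspa1b and Hspa1a, at 0.84 and 0.59 (adjusted p = 0.362 and 0.37, edgeR's test). The list was chosen with these results known and gives no independent evidence of its direction.

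Some counts of the members are uncertain because genes overlap or have copies, and the sources used here do not state whether strand was used in counting. Hspd1 (chr1:55077833-55088243, minus strand) and Hspe1 (chr1:55088148-55091317, plus strand) share 96 bases as RefSeq genes and 112 exon bases in GENCODE M21, which are 4.24% of the Hspd1 and 7.6% of the Hspe1 exon bases. Exons on the opposite strand overlap Tcp1 (Acat3 by 571 and Mrpl18 by 141 bases), Cct6a (Psph by 452), Cct7 (Pradc1 by 214) and Cct8 (Usp16 by 192), and none of these other genes passed in any comparison. RefSeq names 14 pseudogenes or related sequences after members (7 for Hspe1, 5 for Hspd1, 1 each for Cct3 and Tcp1). Of these, 0 are genes of the count matrix, so reads that match both cannot be placed.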

How the data were processed

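The authors deposited whole-number counts per gene for 35976 symbols in 23 libraries, and a second deposited table held the same counts in 17 of them (0 of 611592 values differed). The mouse build was mm10 (GRCm38), and the tools named, per the submitters' processing notes, were STAR 2.7.10a, Trim Galore 0.6.7 with cutadapt 1.18, DESeq2 1.38.3 and StringTie 2.1.5. Whether the counts are reads or were derived from StringTie coverage, and the strand setting, are not given in the sources used here.

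The 10 members and all other lists were chosen with earlier results of these data known. filterByExpr (minimum count 10, minimum total 15) kept 16121 genes, all members included. All libraries entered 1 edgeR 4.0.16 quasi-likelihood fit (R 4.3.3, TMM factors 0.965 to 1.06, robust = TRUE, group only, common biological coefficient of variation 0.831), with Benjamini-Hochberg adjustment over all genes and a threshold of 0.05. The test was also run on simulated counts. The changes simulated were larger than those of the members called, so that run cannot speak to changes of their size. CPM are TMM-scaled. Log2 CPM for correlations used a prior count of 2. Alternatives included DESeq2 1.42.0 and limma 3.58.1 voom. All members were named, with up to 4 passing genes per context list, Hspa8, Hsp90ab1, Hsph1, Dnaja1 and Hspa9, and 5 genes of like pattern for each chaperonin. Lengths were of GENCODE M21 principal transcripts in place of the planned RefSeq coding lengths. For Cct6a the longest transcript was used, as no protein-coding one was found. All 10 symbols matched RefSeq (GRCm38.p6), the source of positions and start windows.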

Additional observations from a re-analysis of the deposited data

Results flagged for a closer look

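Among 30 sets of a member in a group, 1 library stood apart: Cct4 in Maintenance 6, at 360.7 CPM, where the other Maintenance libraries had 233.8 to 280.2 CPM and the gap to the nearest was 0.635 of the group's range. Chance sets apart about 1 in 20 such sets (5%). Maintenance 6 also had the fewest detected genes (12459) and the highest monocyte, endothelial and border macrophage marker sums of its group (231, 1394 and 166 CPM), and their part in the value was not tested. Without this library Cct4 still passed in Maintenance against Saline (log2 fold change 0.35 ± 0.064, adjusted p = 0.00564) and in Abstinence against Maintenance (-0.28 ± 0.066, adjusted p = 0.0368), both by edgeR's quasi-likelihood test.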

How the results depend on the processing

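Members called higher in Maintenance against Saline numbered 3. They were 5 with RLE factors, a filter of 1 CPM, DESeq2 or voom (Tcp1 and Cct7 added), 0 with the oligodendrocyte and neutrophil covariates, 2 with upper-quartile factors, no filter or the replicate block (Cct4 and Hspd1) and 2 to 4 with each library left out. With the number of detected genes as a covariate Hspe1 and Cct7 passed and Cct5 did not. Of all 16121 genes, 54 were called higher in the main fit, 63 with RLE factors, 198 with DESeq2 and 214 with voom. Upper-quartile factors called 38 of them higher, the replicate block 34, the marker covariates 19 and the detected-genes covariate 77. The 1 CPM filter called 89 of 10995 genes higher, and no filter 39 of 22863. Members called lower in Abstinence against Maintenance numbered 1. They were 2 with RLE factors, 5 with the 1 CPM filter, 6 with DESeq2 or voom, 4 without Maintenance 6, 7 and 8 or with the libraries of the second table, 0 with upper-quartile factors, only the groups compared or the replicate block, and 0 to 3 with each library left out. With the detected-genes covariate the count stayed 1, but Cct7 passed and Cct4 did not. Of all 16121 genes, 89 were called lower in the main fit, 117 with RLE factors, 279 with DESeq2 and 187 with voom. Upper-quartile factors called 65 of them lower, the replicate block 84 and the detected-genes covariate 50. The 1 CPM filter called 151 of 10995 genes lower, and only the groups compared 42 of 14976. Without Maintenance 6, 7 and 8 it was 138 of 16706, and with the second table's libraries 169 of 16396. In Abstinence against Saline 0 members passed under any of these settings. Same-numbered libraries did not deviate together (r between -0.116 and 0.092 over 22 pairs, and 1 of 23 libraries correlated best with its own number), so the replicate block rests on shared numbers alone. Filters change the number of genes tested; for the other settings the cause was not tested.

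Log2 fold changes that turned sign were all near 0. In Maintenance against Saline, Cct2 was 0.055 with the libraries of the second table, 0.012 with the detected-genes covariate, and -0.096 to 0.00094 with each library left out. In Abstinence against Saline, Tcp1 was -0.0017 without a filter, -0.04 with voom, -0.00029 with only the groups compared, -0.0012 without Maintenance 6, 7 and 8, and -0.019 to 0.04 with each library left out. With the marker covariates Cct2 was -0.024, Cct5 -0.049 and Cct7 0.0052, and with the replicate block Cct7 was 0.0024. With each library left out, Cct2 ran between -0.00061 and 0.092, Cct7 between -0.048 and 0.019, and Cct8 between -0.065 and 0.003. In Abstinence against Maintenance, Cct6a was 0.022 with the replicate block and -0.069 to 0.019 with each library left out. Over all settings, 978 member values kept sign and side of the threshold, 29 lost and 45 gained a call, and 28 turned sign.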
